A study of Mus musculus with 20 samples.

Results

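Sorted wild-type serotonin (5-HT) neurons of E15.5 mouse embryos were profiled with 2 amplification kits, and the genes of the NuGEN group were compared here with those of the Clontech group. A gene was included when both deposited Cuffdiff tables gave it a usable estimate (status OK) and it reached at least 1 FPKM (a fragment count divided by transcript length and by sequencing yield) in at least 1 of the wild-type groups. This left 10956 of the 22547 genes shared by the tables, or 48.6%. Of these, 461 reached 1 FPKM with the Clontech kit only and 520 with the NuGEN kit only. Just inside the minimum stood Wbscr17, at 1.00 FPKM in the Clontech group and 0.865 in the NuGEN group, and just outside stood Magi3, at 0.481 and 1.000.

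The study sorted cells carrying the yellow fluorescent protein EYFP from C57BL/6 embryos by flow cytometry and amplified their RNA. The 4 groups used were wild type and Pet-1-/- at E15.5 (E for embryonic day), each prepared with the Clontech SMARTer kit and with the NuGEN Ovation kit, and the labels give 3 libraries to each group. Pet-1 is the ETS transcription factor encoded by Fev. The sources used here do not say whether libraries came from separate embryos or pools, or whether both kits received the same RNA, so the kit cannot be told apart from the cells collected for it.

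The SMARTer chemistry primes on the poly(A) tail with oligo-dT and extends the copy by template switching, whereas the Ovation chemistry combines random and oligo-dT primers with linear isothermal amplification. Small nucleolar RNAs (snoRNAs) guide chemical modification of ribosomal RNA, are mostly cut from introns of host genes, and as a rule lack a poly(A) tail. Serotonin neurons of the hindbrain are recognised by tryptophan hydroxylase (Tph2), the serotonin transporter (Slc6a4), the vesicular monoamine transporter (Slc18a2) and the factors that maintain these genes, among them Fev, Gata2, Gata3 and Lmx1b.

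Each table holds 1 FPKM per gene and group, and the tables were scaled separately. Levels were therefore ranked within each table as percentiles over the 10956 genes, and the shift is the NuGEN percentile minus the Clontech percentile. A shift of at least 20 points was counted as a difference. With 1 deposited value per group no test was possible, so "higher" and "lower" describe these values only. The Pet-1-/- groups, which are other libraries made with the same kits, gave the same measure again, although each shares its table's scaling with the wild type. A separate stage table gave 3 single E15.5 libraries, called a, b and c here and tied to the Clontech kit by the protocol. FPKM sums over all genes were 563694 to 761685 per group, 10481 to 10805 genes reached 1 FPKM, and depth is unknown.

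The kits ordered most genes alike. Across the 10956 genes, which are not independent replicates, the Spearman correlation of wild-type levels between kits was 0.939. The 3 Clontech libraries correlated with one another at 0.920 to 0.937 and with the NuGEN group at 0.905 to 0.933. The median absolute shift was 5.04 points in the wild type and 3.26 in the knockout, beside a median SD of 5.02 points among the 3 Clontech libraries. After the median ratio was removed, 90.6% of genes lay within 2-fold between the wild-type groups. Ranks can hardly move near the top of a table, so FPKM are given for the most abundant mRNAs. Tmsb10, which encodes a thymosin that binds actin monomers, was at 5852 FPKM with Clontech and 7293 with NuGEN. Stmn2, a regulator of neuronal microtubules, was at 1673 and 1786.

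In the wild type 242 genes (2.21%) stood at least 20 points higher in NuGEN and 326 (2.98%) at least 20 points higher in Clontech. The genes nearest the threshold shifted by 20.007 and 20.04 points. The NuGEN-higher genes had a median of 2.21 FPKM in Clontech and 7.74 in NuGEN, and the Clontech-higher genes 6.04 and 1.69. Both sets came mainly from low and middle levels, and of the 2191 genes in the highest bin of 5 by level 3 stood higher in NuGEN and 0 in Clontech. In NuGEN wild type all 240 NuGEN-higher genes with library values ranked above each of the 3 Clontech libraries, and 288 of 323 Clontech-higher genes ranked below each. These genes were chosen with the Clontech group value, which lies close to the mean of those libraries, so both counts are a description only. Over all genes with library values, 27.8% ranked above the 3 libraries and 26.5% below.

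**Figure D1:**
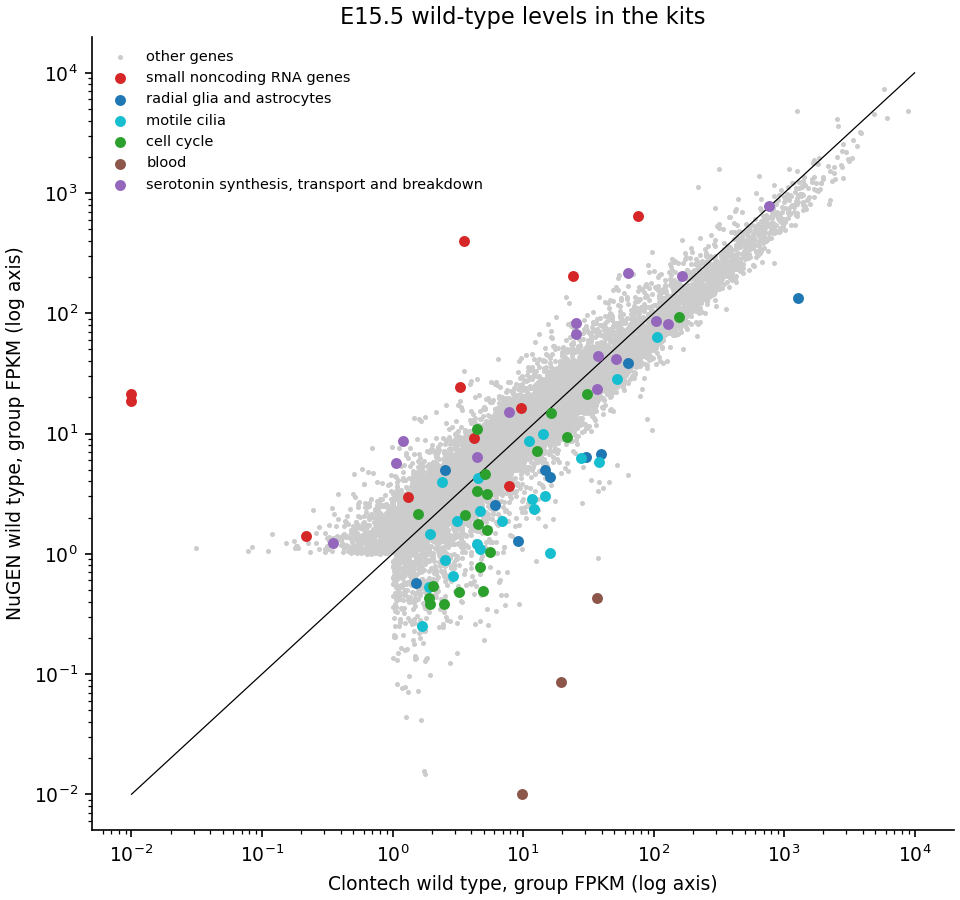
Group FPKM of each gene in wild-type Clontech (x) and NuGEN (y) libraries on log axes, with the line of equal FPKM, 6 gene lists coloured, and values under 0.01 of coloured genes drawn at 0.01. Most genes lie along the line, small noncoding RNA genes lie mainly above it, and blood, glial and cilia genes lie mainly below it.

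The 2 sets differed in how they looked in the knockout. Of the 242 genes higher in NuGEN wild type, 230 had a shift of the same sign in the knockout pair, with a median of 24.0 points in the wild type and 14.47 in the knockout. Of the 326 higher in Clontech wild type, 247 had the same sign, with medians of -26.6 and -5.45 points. The 20-point mark was passed in both genotypes by 68 genes in the NuGEN direction (0.621%) and by 27 in the Clontech direction (0.246%). Over the knockout alone the counts were 129 (1.18%) and 53 (0.484%). The wild-type and knockout groups of 1 kit share a table, and the difference between the genotypes' shifts was not tested.

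**Figure D2:**
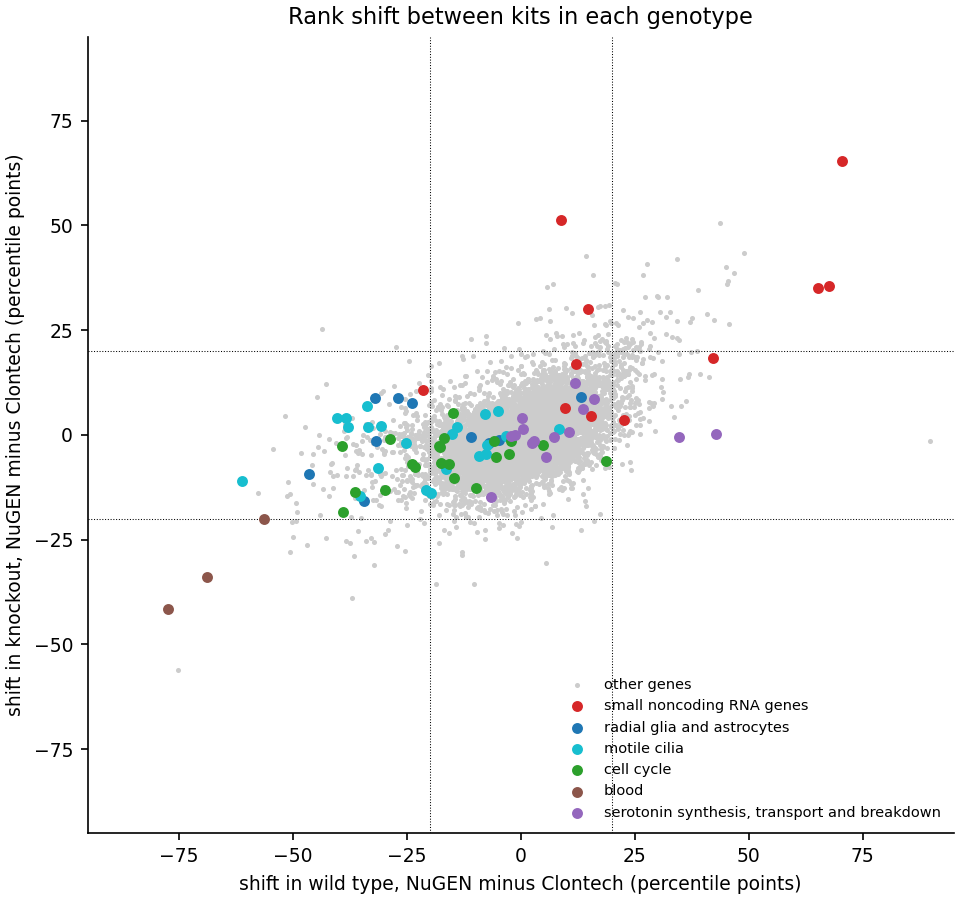
Shift in percentile rank between kits for each gene in the wild type (x) and in the knockout (y), NuGEN minus Clontech, in percentile points, with dotted lines at 20 and -20. Small noncoding RNA genes extend to the upper right, whereas most glial and cilia genes lie to the left and near 0 on the knockout axis.

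Of the gene lists, small noncoding RNA genes had the widest median difference towards NuGEN. Snora70, a snoRNA that guides pseudouridine formation, was at 0, 0 and 7.09 FPKM in Clontech libraries a, b and c and at 3.51 in the Clontech wild-type group. It was at 401 in NuGEN wild type, 12.1 in Clontech knockout and 349 in NuGEN knockout. Both NuGEN groups thus lay far above every Clontech value, 111-fold higher in the wild type and 26.8-fold in the knockout once the median ratio of all genes was removed. Snord15b, a guide of ribose methylation, was listed at 0 in each of the 3 libraries and in the Clontech wild-type group, and at 21.5 in NuGEN wild type. In the knockout it was at 1.41 with Clontech and 32.6 with NuGEN. Snora17 was likewise listed at 0 in the Clontech wild type, and at 18.5 in NuGEN wild type, 3.21 in Clontech knockout and 16.3 in NuGEN knockout.

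Single Clontech libraries gave uneven estimates for these short genes. Snora65 was at 243 FPKM in library a and listed at 0 in b and c, with 76.6 for the group, beside 643 in NuGEN wild type, 43.2 in Clontech knockout and 734 in NuGEN knockout. Snora64 was at 82.5 in library c and listed at 0 in a and b, with 24.0 for the group, 204 in NuGEN wild type, 55.7 in Clontech knockout and 83.3 in NuGEN knockout. Its shift of 22.7 points in the wild type was therefore 3.61 in the knockout.

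Only 11 of the 124 genes of the small noncoding list were among the 10956. Of these 11, 5 stood at least 20 points higher in NuGEN wild type and 1 lower, beside 2.21% and 2.98% of all genes. The median shift was 15.51 points in the wild type and 18.3 in the knockout, beside 0.05 and -0.29 for all genes. The gene that stood lower was Rpph1, the RNA of ribonuclease P. It was at 7.80 FPKM with Clontech and 3.69 with NuGEN in the wild type but at 4.13 and 7.18 in the knockout, and its libraries spread from 2.78 to 15.4. Snord15b, Snora17 and Vaultrc5 entered the comparison through their NuGEN value alone and so had to differ towards NuGEN. Vaultrc5 was at 0.219 FPKM with Clontech and 1.39 with NuGEN in the wild type. Others that went the opposite way in the wild type were left out for their status: Snora47 was at 32.5 with Clontech and 7.70 with NuGEN, and Snora62 at 7.63 and 0. In the knockout both were listed at 0 with Clontech, and NuGEN gave 13.4 and 7.17. Rmrp, also left out for its status, was higher with Clontech in both genotypes. It was at 1.44 with Clontech and 0.142 with NuGEN in the wild type, and at 1.71 and 0.578 in the knockout. Such genes can share reads with their host genes, and these files do not separate them.

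The other genes of this list were outside the comparison, and of all 124 genes 106 were listed at 0 in Clontech wild type and 92 in NuGEN wild type. Over all 124, FPKM summed to 202 in both Clontech groups, to between 116 and 392 in the 3 libraries, and to 4169 and 4261 in NuGEN wild type and knockout. At least 1 FPKM was reached by 15 genes in each Clontech group, by 30 in NuGEN wild type and by 32 in NuGEN knockout. In the wild type 16 were listed at 0 with Clontech and above 0 with NuGEN, and the reverse held for 2. Snora33 was the highest of these, listed at 0 in both Clontech groups and in all 3 libraries, at 956 FPKM in NuGEN wild type and at 1007 in NuGEN knockout. Snora41 showed the same pattern with 368 and 272, and Snord22 with 345 and 348.

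Long noncoding RNAs differed gene by gene. Rian, a transcript of the imprinted Dlk1 to Dio3 region that hosts snoRNAs, was at 4.40, 2.51 and 2.27 FPKM in the Clontech libraries and 3.50 for the group, and at 32.8 in NuGEN wild type. In the knockout it was at 3.61 with Clontech and 20.6 with NuGEN, so that all Clontech values lay below both NuGEN values. Meg3, of the same region, was at 136 and 244 in the wild type and 195 and 406 in the knockout, with 88.1 to 209 in the single libraries. Snhg11, a snoRNA host transcript rich in neurons, was at 167 and 168 in the wild type and 205 and 254 in the knockout. Of 14 nuclear and imprinted long noncoding RNAs, 1 stood at least 20 points higher in NuGEN wild type (beside 2.21% of all genes). On the centred log2 scale 7 of the 14 were above 0 in the wild type and 11 in the knockout. AA465934, a long noncoding RNA of unassigned role, was at 1.46 and 13.3 in the wild type and 2.14 and 15.2 in the knockout.

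Some protein-coding genes also stood higher in NuGEN in both genotypes. Of 10549 protein-coding genes, 55 passed 20 points towards NuGEN in both genotypes and 27 towards Clontech. In the wild type, whatever their knockout shift, 224 and 306 did. Among genes of any type with at least 10 FPKM in the higher kit (5305 genes), 33 passed 20 points towards NuGEN in both genotypes and 14 towards Clontech. These counts lie near the shares over all genes. Those were 0.621% and 0.246% for both genotypes together, and 2.21% and 2.98% for the wild type. The 33 include noncoding genes such as Snora70 and Rian. Kdm6b, a demethylase of histone H3 lysine 27, was at 4.59, 5.99 and 3.16 FPKM in the libraries and 4.41 for the Clontech group, against 28.5 in NuGEN, and at 6.28 and 27.3 in the knockout. Spry2, an inhibitor of receptor tyrosine kinase signalling, was at 3.36 and 16.7, and at 2.40 and 15.9 in the knockout. Both of these genes lay above all 3 Clontech libraries in NuGEN wild type.

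Lmbr1l, a membrane protein of the limb region 1 family, was at 1.59 FPKM with Clontech and 13.1 with NuGEN, and at 1.47 and 8.47 in the knockout. Lsm14b, an RNA-binding protein of cytoplasmic granules, was at 1.64 and 12.7, and at 2.51 and 12.6 in the knockout. Ppm1h, a protein phosphatase, was at 1.77 and 13.7, and at 1.79 and 10.6 in the knockout. The differences between kits recurred at higher levels. Paip1, a binding partner of poly(A)-binding protein that was chosen after its values were seen, was at 21.5 and 138, and at 17.8 and 125 in the knockout. Nnat, an imprinted membrane proteolipid of developing neurons, was at 1265 and 4849, and at 1645 and 6144 in the knockout. Its rank barely moved, by 0.64 points, because it was near the top of both tables, while its fold was 3.72 in the wild type and 3.47 in the knockout.

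**Figure D3:**
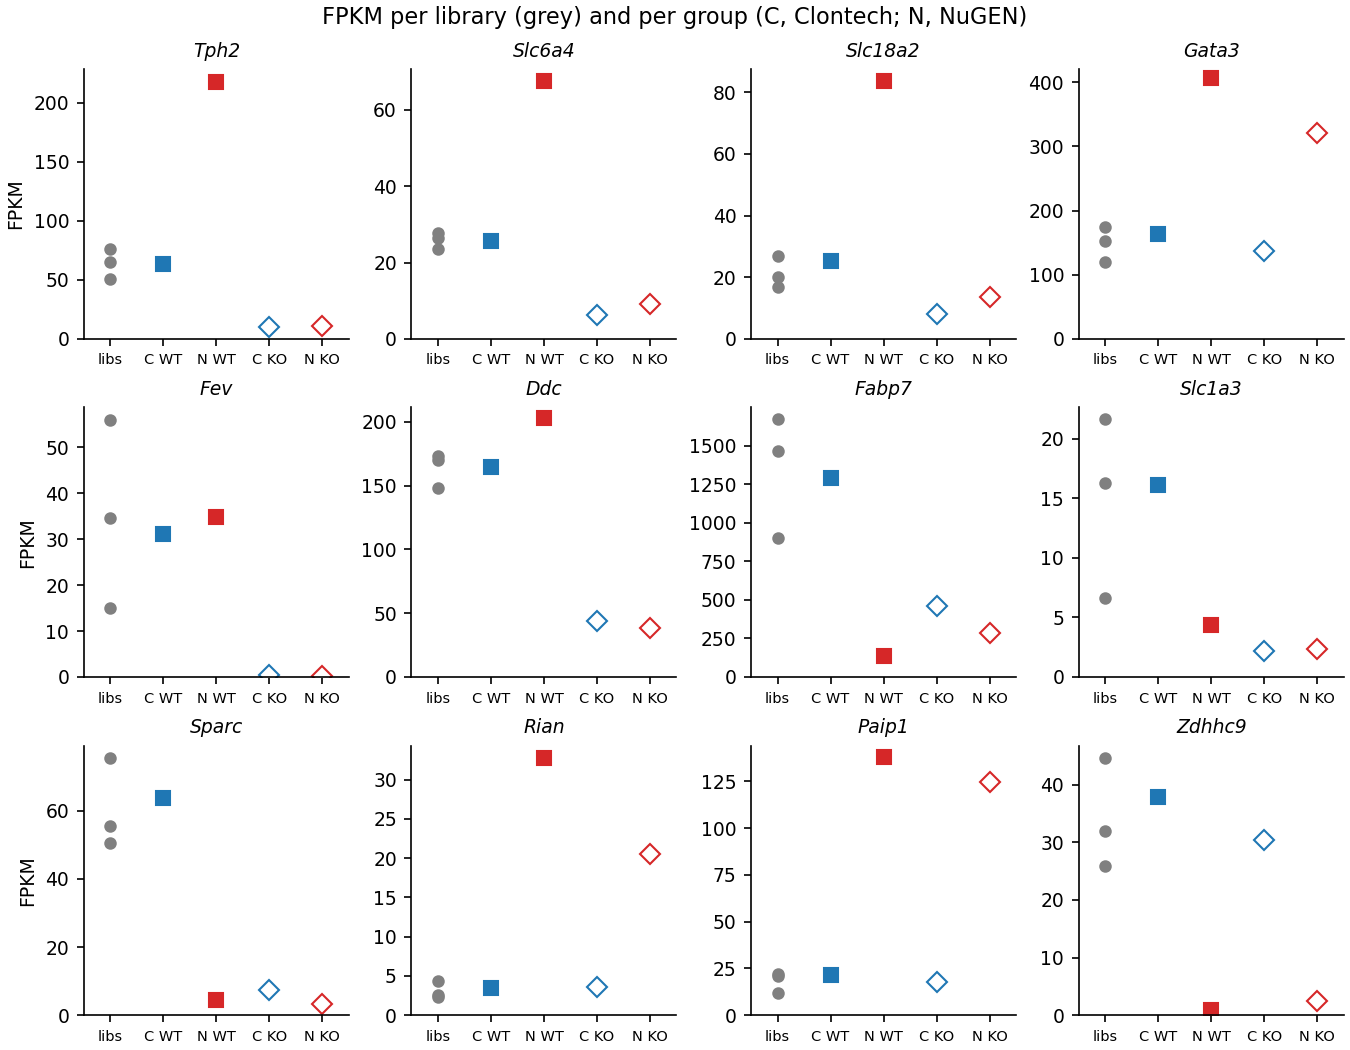
FPKM of 12 genes in the 3 single Clontech E15.5 libraries (grey) and in the deposited groups, with squares for wild type, open diamonds for knockout, blue for Clontech (C) and red for NuGEN (N). Rian, Paip1 and Gata3 are higher in NuGEN in both genotypes, Tph2 and Slc18a2 are far apart in the wild type only, and Fabp7 and Sparc are highest in the Clontech wild type.

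The genes that define the neurons were present with both kits but not at the same levels. Tph2, the enzyme of the rate-limiting step of serotonin synthesis in the brain, was at 64.9, 51.0 and 76.3 FPKM in the Clontech libraries and 63.5 for the group, against 218 in NuGEN wild type. Its knockout values were 9.75 and 11.1. Slc6a4, which returns serotonin to the cell, was at 27.8, 26.3 and 23.4 in the libraries and 25.6 for the group, against 67.6 in NuGEN wild type, and at 6.21 and 9.05 in the knockout. Slc18a2, which loads vesicles, was at 20.1, 16.98 and 26.8 and at 25.3 for the group, against 83.7 in NuGEN wild type, and at 8.17 and 13.5 in the knockout. The NuGEN wild type was above every Clontech library for these 3 genes. Their folds were 3.33, 2.56 and 3.20 in the wild type and 1.06, 1.35 and 1.54 in the knockout.

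Receptors and uptake carriers of low level shifted furthest in rank. Htr1a, the inhibitory serotonin autoreceptor, was at 0.191, 1.05 and 1.42 FPKM in the libraries and 1.07 for the Clontech group, against 5.70 in NuGEN wild type, a shift of 34.6 points. The shift was 9.73 points among genes of at least 5 FPKM in either kit and 16.96 with ranks over all genes. Its knockout values were 0.924 and 1.02. Slc22a3, a low-affinity monoamine carrier, was at 1.21 and 8.70 in the wild type and at 0.042 and 0.203 in the knockout. These 2 were the only ones of 15 genes of serotonin synthesis, transport and breakdown past 20 points (beside 2.21% of all genes towards NuGEN). Of the 15 genes, 11 ranked above all 3 libraries and 2 below, and the median shift was 5.604 points in the wild type and -0.04 in the knockout. The wild-type libraries of each kit came from cells whose number and RNA content are not known, and in bulk samples fewer cells of a type and less RNA per cell cannot be told apart.

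Ddc, which makes serotonin from its precursor, was nearer between kits, at 164 FPKM with Clontech and 203 with NuGEN in the wild type and 44.0 and 38.8 in the knockout. Gchfr, the feedback regulator of cofactor synthesis, was at 769 and 781, and at 143 and 182 in the knockout. Gch1, the first enzyme of that synthesis, was at 4.41 and 6.38, and at 2.94 and 2.67 in the knockout. The oxidases that break serotonin down differed in direction. Maoa was at 37.8 with Clontech and 43.9 with NuGEN in the wild type, and at 27.3 and 26.3 in the knockout. Maob was at 36.6 and 23.3, and at 15.03 and 8.32 in the knockout, and its NuGEN wild type was under the lowest library, 30.7.

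Among the transcription factors Gata3 alone of those named was over 2-fold higher in NuGEN in both genotypes. It was at 175, 121 and 152 FPKM in the libraries and 164 for the Clontech group, against 406 in NuGEN, and at 137 and 321 in the knockout. Its close relative Gata2 was at 33.5 and 32.6 in the wild type and 30.6 and 32.6 in the knockout. Fev was at 55.9, 34.6 and 14.97 in the libraries and 31.1 for the Clontech group, against 34.9 in NuGEN. At 0.422 and 0.308 in the knockout, the targeted gene was low with both kits, as the genotype labels say.

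Lmx1b, a LIM homeodomain factor, went the other way, at 4.89 FPKM with Clontech and 2.54 with NuGEN in the wild type and 8.19 and 2.15 in the knockout. Insm1, a zinc finger factor of newborn neurons, was at 8.80 and 3.01, and at 9.07 and 4.46 in the knockout. Both NuGEN wild-type values were below the lowest Clontech library, 5.20 for Lmx1b and 6.56 for Insm1. For Lmx1b the Clontech group value, 4.89, was itself below that library. The shift of Lmx1b was -18.58 points with the group value and -23.93 with the mean of the libraries. Of 14 serotonin neuron transcription factors, 0 stood 20 points higher in NuGEN wild type and 2 lower, Insm1 and Foxa2. Over all genes these shares were 2.21% and 2.98%. The median shift of the 14 was -0.84 points in the wild type and 0.09 in the knockout.

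The contrast of genotypes differed in size between the kits for these genes. Wild type exceeded knockout for Tph2 by 6.52-fold with Clontech and 19.7-fold with NuGEN, for Slc6a4 by 4.12-fold and 7.47-fold, and for Slc18a2 by 3.10-fold and 6.19-fold. For Htr1a the ratio was 1.16 with Clontech and 5.596 with NuGEN. The ratio for Ddc was 3.73 and 5.24. Over all genes, 193 (1.76%) stood at least 20 points higher in the wild type than in the knockout with Clontech and 52 (0.475%) lower, against 50 (0.456%) and 90 (0.821%) with NuGEN. These ratios and counts were formed within each table, share their groups with the kit comparison, and have no replicate check.

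Genes of radial glia and astrocytes were mostly higher with Clontech in the wild type. Fabp7, a fatty-acid-binding protein of radial glia, was at 902, 1672 and 1466 FPKM in the libraries and 1289 for the Clontech group, against 135 in NuGEN wild type, a 9.84-fold difference. In the knockout it was at 458 and 284, a 1.74-fold difference. Slc1a3, an astroglial glutamate transporter, was at 6.63, 21.7 and 16.3 and at 16.1 for the group, against 4.34, and at 2.17 and 2.34 in the knockout. Aldoc, an aldolase of astrocytes, was at 30.4 and 6.41, and at 3.64 and 5.81 in the knockout, so that its order reversed. For each of these genes the NuGEN wild type was below the lowest library, although library a was well below b and c.

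Of 10 radial glia and astrocyte genes, 6 stood at least 20 points higher in Clontech wild type and 0 in NuGEN (beside 2.98% and 2.21% of all genes), 9 ranked below all 3 libraries, and the median shift was -25.4 points in the wild type and -0.93 in the knockout. Hes5, at 1.51 FPKM with Clontech and 0.570 with NuGEN, could enter only through its Clontech value, which favours this direction. The exception in direction was Slc1a2, at 2.51 FPKM with Clontech and 4.99 with NuGEN. All 12 listed genes summed to 1474 in Clontech wild type, 206 in NuGEN wild type, 499 in Clontech knockout and 328 in NuGEN knockout, with 1028 to 1978 in the 3 libraries. Fabp7 alone made up most of each group's sum, at 1289, 135, 458 and 284 in the same order. Gfap, which defines mature astrocytes, was at or near 0 in every group. The sum, mostly Fabp7, was high where Tph2, Slc6a4 and Slc18a2 were lower, in Clontech beside NuGEN wild type. Other serotonin neuron genes did not share that order. Gchfr, Fev and Gata2 were near each other between the wild-type groups, and Maob and Lmx1b were higher with Clontech. Any part of the glial sum in these differences was not tested.

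Genes of motile cilia, a list drawn up after the values were seen, behaved alike in the wild type. Of 22, 11 stood at least 20 points higher in Clontech (beside 2.98% of all genes) and 0 in NuGEN, and the median shift was -20.3 points, against -0.01 in the knockout. Those under 1 FPKM in NuGEN wild type, such as Dnaic1, could enter only through their Clontech value, which favours this direction. Capsl, a calcium-binding protein found in ciliated cells, was at 11.4, 22.2 and 13.5 FPKM in the libraries and 16.0 for the Clontech group, against 1.01 in NuGEN, and at 2.24 and 1.49 in the knockout. Fam183b was at 38.2 and 5.78 in the wild type and 15.8 and 18.98 in the knockout. Foxj1, the master factor of motile cilia, was under 1 FPKM in all 4 groups. Rsph9, a radial spoke protein, was the highest of the list and differed less, at 106 and 63.5 in the wild type and 96.3 and 95.5 in the knockout.

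Cell cycle genes had a median shift of -16.9 points in the wild type and -5.20 in the knockout. Of 21, 7 stood at least 20 points higher in Clontech wild type (beside 2.98% of all genes). Some, such as Ccnb2, Cdk1 and Plk1, were under 1 FPKM in NuGEN wild type. They could enter only through their Clontech value, which favours this direction. On the centred log2 scale 19 of the 21 were below 0 in the wild type and 20 in the knockout. Ccnb2, a mitotic cyclin, was at 3.86, 9.60 and 2.89 FPKM in the libraries and 4.97 for the Clontech group, against 0.494 in NuGEN, and at 1.70 and 1.69 in the knockout. Pcna, the replication clamp, was at 157 and 92.6 in the wild type and 136 and 111 in the knockout. Mcm6, a subunit of the replicative helicase, went the other way in the wild type at 4.44 and 10.9, where library a gave 0.492.

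Of the gene lists, blood had the largest median shift towards Clontech in the wild type. Only 3 globin entries of this list were among the 10956 genes. All 3 entered the comparison through their Clontech value alone and so had to differ in this direction. Beta-s, a beta globin, was at 55.0, 51.2 and 10.4 FPKM in the libraries and 36.9 for the Clontech group, against 0.429 in NuGEN wild type, and at 9.86 and 1.97 in the knockout. The joint entry of the alpha globins Hba-a1 and Hba-a2 was at 19.6 and 0.086, and at 5.90 and 1.55 in the knockout. Globin copies are near-identical, so the split of reads among them is uncertain. The 9 blood genes summed to 77.2 in Clontech wild type, 0.616 in NuGEN wild type, 24.7 in Clontech knockout and 4.30 in NuGEN knockout. The embryonic globins Hba-x and Hbb-bh1 were listed at 0 in all 4. Hbb-y, another embryonic globin, was at 0.033, 0, 0.320 and 0 in the same order. The 9 microglia genes summed to 14.3, 2.87, 2.47 and 1.33 in the same order. C1qb, a complement subunit made by microglia, was the highest of these in Clontech wild type, at 6.63, 0.606, 1.10 and 0.287. Cd68 and C1qc, both under 1 FPKM, went the other way in the wild type, at 0.552 and 0.934 and at 0.159 and 0.291.

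Markers of vessels and meninges were low with both kits, and those of myelin and other transmitters varied. The 12 vascular, meningeal and pericyte genes summed to 5.22 FPKM in Clontech wild type and 0.418 in NuGEN wild type, and 3.13 of the former was Dcn, a matrix proteoglycan. Mbp, a myelin protein, was at 22.3 and 4.86 in the wild type and 17.9 and 9.35 in the knockout. Th, the enzyme of catecholamine synthesis, was at 7.90, 7.97 and 3.30 in the libraries and 5.66 for the Clontech group, against 0.062 in NuGEN wild type, 2.15 in Clontech knockout and 0 in NuGEN knockout. Slc17a8, a vesicular glutamate transporter that serotonin neurons themselves use, was at 110 and 123 in the wild type. The other markers of non-serotonergic transmitters were under 3 FPKM in every group.

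Some of the genes higher in Clontech in both genotypes belonged to none of these lists. Zdhhc9, a palmitoyltransferase, was at 44.6, 31.9 and 25.9 FPKM in the libraries and 37.8 for the Clontech group, against 0.917 in NuGEN, and at 30.4 and 2.49 in the knockout. It was 42.5-fold higher in Clontech wild type and 13.1-fold in the knockout, and in the knockout it was 1 of 2 genes past 4-fold in that direction (0.0183%). H1fx, a linker histone, was at 10.3 and 2.45, and at 10.7 and 3.71 in the knockout. Tagln2, an actin-binding protein, was at 13.0 and 2.84, and at 8.96 and 3.59 in the knockout. Mfng, a glycosyltransferase that modifies Notch, was at 14.3 and 3.61, and at 8.43 and 3.46 in the knockout.

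Sparc, a secreted matrix protein, was at 50.7, 75.5 and 55.6 FPKM in the libraries and 63.8 for the Clontech group, against 4.49 in NuGEN, and at 7.41 and 3.20 in the knockout. Gpx8, a peroxidase of the endoplasmic reticulum, was at 45.5 and 3.96, and at 8.11 and 4.05 in the knockout. Phgdh, the first enzyme of serine synthesis, was at 28.6 and 5.30, and at 9.82 and 4.36 in the knockout. In these 3 genes the Clontech wild type stood above the other groups by more than the other groups stood from one another. The ratio of wild type to knockout was 8.61 for Sparc with Clontech and 1.41 with NuGEN, and 2.81 and 0.476 for Fabp7.

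On the log2(FPKM + 1) scale, centred on the median over all genes (a shift of 0.04 in the wild type and 0.09 in the knockout), 33 genes were at least 4-fold higher in NuGEN wild type (0.301%) and 48 in Clontech wild type (0.438%). In the knockout 18 were at least 4-fold higher in NuGEN (0.164%). In both genotypes 13 passed 4-fold towards NuGEN (0.119%) and 1, Zdhhc9, towards Clontech (0.00913%). The pseudocount of 1 understates the fold of low genes. The SD of this difference over genes was 0.64 in the wild type and 0.43 in the knockout.

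Housekeeping lists showed small differences of the same sign in the wild type. Of 83 cytosolic ribosomal protein genes, 10 were above 0 on this scale in the wild type and 62 in the knockout, and the medians were -0.47 and 0.26. Abundant genes as a whole leaned the same way in the wild type: of the 2191 genes in the highest bin by level, 531 were above 0 in the wild type and 911 in the knockout, with medians of -0.41 and -0.09. Rpl41 was at 3807 FPKM with Clontech and 3250 with NuGEN in the wild type, and at 3677 and 5968 in the knockout. For 88 genes of the respiratory chain and ATP synthase the counts were 6 and 54, with medians of -0.48 and 0.13. Cox4i1, a subunit of complex IV, was at 1991 and 1314, and at 1952 and 2129 in the knockout. Many ribosomal protein genes have near-identical pseudogenes, so their estimates are uncertain.

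Mitochondrial ribosomal proteins (2 of 76 above 0 in the wild type and 24 in the knockout) and proteasome subunits (4 and 7 of 35) were lower in NuGEN on this scale in the wild type, with medians of -0.69 and -0.61. In the knockout their medians were -0.19 and -0.22. No gene of the 83, 88 or 35 passed 20 points in the wild type, and 1 of the 76 did, Mrps30, at 4.31 and 1.95 FPKM. Over all genes 2.21% passed towards NuGEN and 2.98% towards Clontech.

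**Figure D4:**
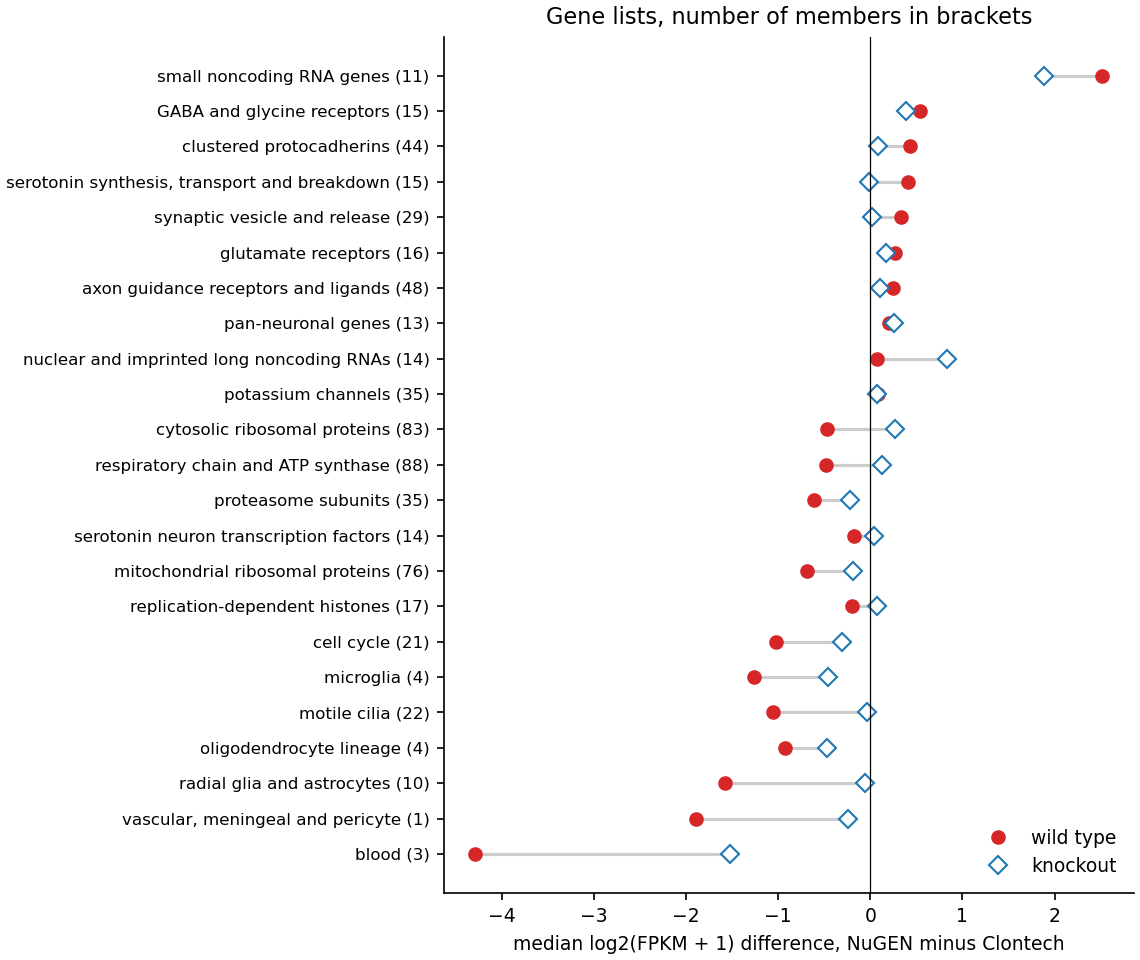
Median over each gene list of the centred log2(FPKM + 1) difference between kits, NuGEN minus Clontech, in the wild type (filled circles) and knockout (open diamonds), ordered by the median rank shift in the wild type, with the number of genes in brackets. Small noncoding RNA genes lie farthest right in both genotypes, and blood genes lie farthest left in both, whereas radial glia and astrocyte genes lie left in the wild type and near 0 in the knockout.

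Several lists of neuronal receptor and adhesion genes leaned towards NuGEN in the wild type. By the centring, 5478 of all 10956 genes were above 0 in each genotype. In the 3 lower of the 5 bins by level the wild-type counts were 1266 and 1359 of 2192 and 1301 of 2190. Of 15 GABA and glycine receptor genes, 13 were above 0 in the wild type and 12 in the knockout. In the wild type 2 passed 20 points (beside 2.21% of all genes), Gabra2 and Glra2. Gabra2, a GABA-A receptor subunit, was at 0.428, 2.28 and 2.64 FPKM in the libraries and 2.17 for the Clontech group, against 14.96 in NuGEN, and at 2.84 and 9.63 in the knockout. Both NuGEN groups were thus above every Clontech value.

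Of 44 clustered protocadherin genes, which give neurons their surface identity, 36 were above 0 in the wild type and 26 in the knockout. In the wild type 5 passed 20 points (beside 2.21% of all genes), all of the alpha cluster. Pcdha7 was at 0.820, 1.31 and 0.862 FPKM in the libraries and 1.04 for the Clontech group, against 4.44 in NuGEN, and at 1.45 and 2.31 in the knockout. Genes of the alpha cluster share their last exons, so reads there cannot be assigned to 1 of them. Of 29 synaptic vesicle and release genes 25 were above 0 in the wild type and 16 in the knockout, and 0 passed 20 points. Syt11 was at 157 and 128 in the wild type. Of 35 potassium channel genes, 19 and 21 were above 0 and 0 passed 20 points in the wild type.

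Peptide and activity genes did not move together. Sst, the precursor of somatostatin, was at 1152, 1320 and 560 FPKM in the libraries and 844 for the Clontech group, against 262 in NuGEN wild type, and at 146 and 219 in the knockout. Npy was at 2.70 and 9.05, and at 0.305 and 0.940 in the knockout. Nts was at 26.0 and 8.17, and at 10.7 and 11.2 in the knockout. The immediate early gene Fos was at 17.04 and 6.43, and at 5.34 and 7.42 in the knockout. Thus Sst and Fos were higher with Clontech in the wild type and with NuGEN in the knockout.

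The difference between kits also followed the length of the locus that the tables list for each gene, which can take in overlapping or host genes. In 5 bins of near-equal size, with median lengths of 4.46, 12.7, 24.8, 49.8 and 139 kb, the median centred log2 difference in the wild type was -0.32, -0.14, 0.02, 0.14 and 0.19. In the knockout it ran from -0.07 to 0.07. Among genes of at least 10 FPKM in both kits the wild-type medians were -0.46, -0.38, -0.25, -0.07 and -0.00071, so that no bin lay above 0. Across genes the Spearman correlation of length and difference was 0.262 in the wild type and 0.0716 in the knockout, a weak relation over genes that share libraries. The shortest bin holds the snoRNA genes Snord15b and Snora70, which differ in the opposite direction from the bin's median.

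**Figure D5:**
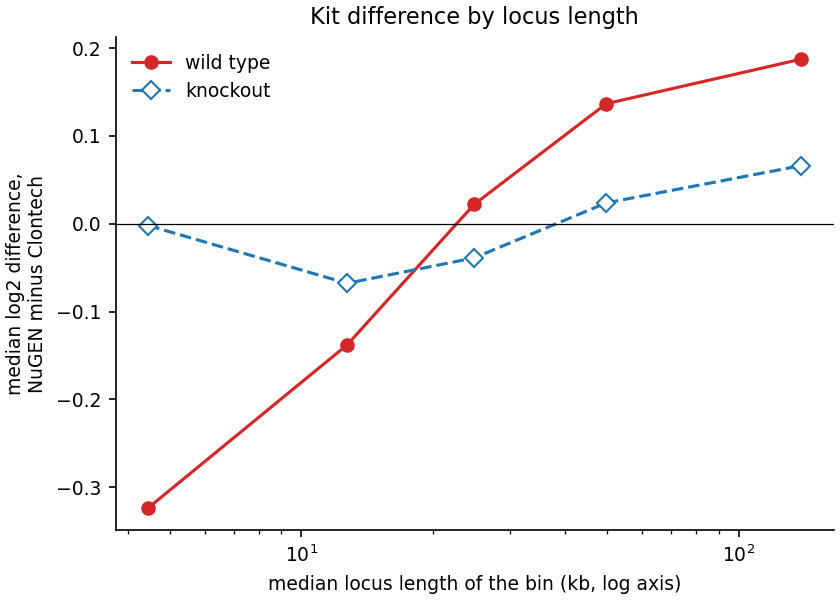
Median centred log2(FPKM + 1) difference between kits, NuGEN minus Clontech, in 5 bins of genes by locus length (x, median length in kb, log axis), for wild type (solid line) and knockout (dashed line). The wild-type medians go from -0.32 in the shortest bin to 0.19 in the longest, whereas the knockout medians stay between -0.07 and 0.07.

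Among the 10956 genes, which all needed a usable estimate with both kits, few were detected with 1 kit only. That filter itself removes genes absent from 1 kit, so the small counts are partly set by it. In the wild type it left out Snora33, at 0 with Clontech and 956 FPKM with NuGEN, and Snora62, at 7.63 and 0. At least 1 FPKM in NuGEN wild type with less than 0.1 in Clontech was seen for 6 genes (0.0548%), among them Snord15b, Snora17 and Mir1931. Mir1931, a microRNA hairpin gene, was listed at 0 with Clontech and at 90.9 FPKM with NuGEN in the wild type but at 51.2 and 46.8 in the knockout, and it had the largest rank shift of all genes, 89.7 points. The reverse was seen for 17 genes (0.155%), among them the joint alpha globin entry and the joint entry of Hbb-b1 and Hbb-b2. Slc38a5, an amino acid transporter chosen after its values were seen, was another, at 1.26 and 0.044.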

How the data were processed

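Per the labels' protocols, EYFP+ cells were sorted, and total RNA was amplified with the Clontech or the NuGEN kit, 3 libraries per group. The submitters' processing notes name TopHat2 and Cufflinks without versions, and mm9 and mm10 with no role. The authors deposited FPKM per group in 1 Cuffdiff table per kit, and FPKM per library in a stage table. The E15.5 columns of that table name no kit and were taken as Clontech, since the protocol gives Clontech for the stages. Per gene, their mean was a median 1.00 times the Clontech group value, with 5% to 95% of 10411 genes between 0.861 and 1.19. That table has 3 columns that fit no sample, which were left aside. Values per NuGEN library were not used here.

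Tables were joined on gene with Python 3.11.15, numpy 2.4.6 and pandas 2.3.3. Percentile ranks were taken within each table over the 10956 genes. Log2(FPKM + 1) differences were centred on their median, and printed folds are FPKM ratios divided by the median ratio. The steps were tested on simulated data. No p-value was formed, because each kit and genotype has 1 value. Of 11066 genes at 1 FPKM in either wild type, 110 were left out for their status, such as Actb, Actg1 and Hspa8, some of which are failed estimates listed at 0. RefSeq gave a gene type for 10892 genes, by symbol.

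The members and gene lists were chosen with earlier results of these data known. Beta-s was added to the blood list and the motile cilia list was drawn up after values were seen. Genes were named by rule. The rule took the 12 largest shifts in each direction among genes at 10 FPKM or more in the higher kit that passed 20 points in both genotypes, and the 10 highest genes of each kit. It also took the 3 highest and the most shifted genes of each list, and 12 serotonin genes. A further part, genes below 0.1 FPKM in the other kit in both genotypes, named none. Genes that illustrate a list beyond this rule were chosen after their values were seen.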

Additional observations from a re-analysis of the deposited data

Results flagged for a closer look

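In 2 genes the kits differed by at least 20 points in opposite directions in the 2 genotypes, and this difference between genotypes was not tested. 1500015O10Rik had a shift of -43.5 points in the wild type and 25.3 in the knockout. It was at 8.93, 32.7 and 15.1 FPKM in the 3 Clontech libraries, 17.5 in the Clontech wild-type group, 2.74 in NuGEN wild type, 1.15 in Clontech knockout and 4.28 in NuGEN knockout. Clic1, a chloride intracellular channel protein, had a shift of -27.5 points in the wild type and 21.0 in the knockout. It was at 19.9, 45.2 and 17.5 FPKM in the libraries, 25.1 in the Clontech group, 6.85 in NuGEN wild type, 3.40 in Clontech knockout and 8.84 in NuGEN knockout. In both genes the Clontech knockout had the lowest value of the 4 groups and library b the highest of the 3 libraries.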

How the results depend on the processing

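The wild-type counts of 242 genes higher in NuGEN and 326 higher in Clontech became 17 and 64 with ranks over all genes of each table, a scale that compresses expressed genes by its construction. They became 1351 and 1271 at 10 points and 48 and 126 at 30 points. With 1 Clontech library in place of the group they were 540 and 638 for library a and 423 and 558 for library b, and library c, the mean of the libraries and the other settings stayed within 1.5 times. In an alternative chosen after seeing the data, the mean of the libraries with each left out in turn gave 268 to 391 and 357 to 517, and the highest of each, 391 and 517, came without library c. The counts in both genotypes, 68 and 27, became 3 and 3 with ranks over all genes, 416 and 284 at 10 points and 13 and 5 at 30 points. The NuGEN count of 68 was 117 with a minimum of 5 FPKM and 43 with none. The 4-fold counts of 33 and 48 became 89 and 190 with a pseudocount of 0.1, 14 and 15 with 5, and 475 and 558 at 2-fold, and the Clontech count was 27 where both kits reached 1 FPKM. Genes found with 1 kit only, 6 and 17, became 3 and 2 when the other kit had to be listed at 0 and 84 and 165 when it was below 0.5 FPKM.

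Over 419 alternative values of 36 named genes, none of the 25 genes past 20 points changed sign. Of the rest, Fev, Gata2 and Maoa changed sign in 6 values, each from single or fewer Clontech libraries. In 10 values a gene past 20 points fell under it, 9 of them with ranks over all genes. Of 66 list medians, 3 changed sign, none of them from 20 points or more. No paired analysis was possible because the tables give 1 value per group. Values per library were not used for NuGEN, so no NuGEN library was left out. The difference in median shift between the longest and the shortest bin by locus fell from 3.54 to 1.61 points where both kits reached 10 FPKM. Transcript length, exon number and GC content were not run. Depth is unknown, so counting error of low genes could not be given.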

Other observations

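Markers of embryo sex were near each other between kits in the wild type. Eif2s3y, on the Y chromosome, was at 14.6 FPKM with Clontech and 15.9 with NuGEN in the wild type and 17.6 and 13.8 in the knockout, with 9.82 to 20.3 in the 3 libraries. Xist, which silences the X chromosome, was at 3.84 and 3.20 in the wild type and 4.24 and 13.0 in the knockout, a shift of 23.5 points in the knockout. Replication-dependent histone genes, whose mRNAs lack a poly(A) tail, were mixed. Of 17, 6 were above 0 on the centred log2 scale in the wild type and 9 in the knockout. In the wild type 2 of the 17 stood at least 20 points higher in Clontech (beside 2.98% of all genes). Over all 68 genes of the list FPKM summed to 354 with Clontech and 457 with NuGEN in the wild type and to 234 and 515 in the knockout, with 231 to 625 in the 3 libraries. Hist3h2ba made up much of these sums, at 155 and 260 in the wild type and 73.2 and 255 in the knockout. Hist1h1b, a linker histone of dividing cells, was at 4.35 and 0.539 FPKM in the wild type and 2.04 and 1.05 in the knockout. It could enter only through its Clontech value, which favours the Clontech direction. Zinc finger genes of the Zfp series, 307 in all, had 197 above 0 in the wild type and 148 in the knockout. Ntn1, a guidance cue of the midline, was at 7.41 and 3.17 in the wild type and 1.67 and 2.38 in the knockout, and Sema4b at 1.17 and 5.42, and 1.76 and 6.37.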
